A study of Homo sapiens with 21 samples.

Results

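RASD1, also called DEXRAS1 or AGS1, encodes a small GTPase of the Ras family. It was selected on its measured values, as a gene among those that rose most with calcium, and it is 1 of the 58735 genes in the deposited table and 1 of the 14686 genes tested. For this reason every RASD1 value that rests on the calcium or the control libraries is given as a description without a test. RASD1 also stands on the list of regulated genes that the study drew up from these libraries, so that list is not independent evidence for it.

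The study asked which genes of MDA-MB-453 cells, an established human breast cancer line of WT genotype, respond to calcium and to cadmium through the estrogen-related receptor ESRRB. RNA from 21 libraries was sequenced, 3 in each of 7 groups: control with no treatment, calcium (10 mM), cadmium (10 µM), GSK4716 (5 µM), DES (10 µM), DES with calcium at those doses, and DES with cadmium at those doses. GSK4716 is an agonist of ESRRB and DES (diethylstilbestrol) an antagonist, both dissolved in ethanol. Treatment lasted 24 h, and in the combined groups DES was added 3 h ahead of the metal. Calcium and GSK4716 were given in medium without serum and cadmium in medium with little charcoal-stripped serum. The medium and the vehicle of the control libraries are not given in the sources used here, so the effect of each agent on RASD1 cannot be told apart from a difference in medium or ethanol. The sources do not say whether the libraries of a group came from separate cultures, so p-values measure the spread between these libraries, which may be technical.

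RASD1 was found as a gene induced by the glucocorticoid dexamethasone. Its product can activate Gi proteins without a receptor and dampen the cyclic AMP pathway, and it binds NOS1AP, the adaptor that brings it to neuronal nitric oxide synthase. Unlike HRAS and NRAS it is known mainly as a gene whose amount changes with hormones, the circadian clock and neuronal activity.

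RASD1 (ENSG00000108551) lies on the minus strand of chromosome 17, at 17494437 to 17496395 in GRCh38.p14. Its 2 exons sum to 1748 bases, the length that the deposited table uses, and encode 281 amino acids by the GENCODE annotation. In the deposited annotation 0 other genes overlapped RASD1, so no annotated gene shares its bases. The library protocol leaves unclear whether strand was kept in counting, and the effect of this on RASD1 was not tested. The 250 bases before the RASD1 start (chr17:17496396-17496645, minus strand, GRCh38.p14, from RefSeq) are shown because RASD1, like many immediate early genes, was higher with calcium. This likeness rests on the calcium libraries that selected RASD1 and was not tested. The capitals mark TGACG, the shared part of the cyclic AMP response element.
RASD1 promoter: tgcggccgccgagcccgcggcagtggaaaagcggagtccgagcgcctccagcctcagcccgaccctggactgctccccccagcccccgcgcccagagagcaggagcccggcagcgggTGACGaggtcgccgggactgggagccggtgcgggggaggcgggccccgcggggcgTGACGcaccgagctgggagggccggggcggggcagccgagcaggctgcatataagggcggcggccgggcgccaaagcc
The RASD1 window held 2 TGACG matches, at 133 and 78 bases before the start, while 21.7% of the 27305 promoter windows of this length held at least 1 on either strand and 4.93% held 2 or more. The whole element TGACGTCA had 0 matches in the RASD1 window, against 1.77% of promoters with a match. The window also held 2 matches to GGGCGG, the core of SP1 sites (42.3% of promoters with at least 1 and 24.4% with 2 or more), and 1 to GGAAA, the core of NFAT sites (56.0%). No match in the RASD1 window was found for TGANTCA (AP-1, 6.60% of promoters), TNAAGGTCA (the element of estrogen-related receptors, 0.850%) or its core AAGGTCA (3.46%). The same was true of AGAACA, a part of the glucocorticoid element (12.4%), GCGGGGGCG (EGR, 4.68%), TATAAA (11.1%), and the metal element parts TGCACNC (9.73%) and TGCGCNC (16.9%). Of the RASD1 window 78% was G or C, above 94.6% of the promoters, whose median was 58%. These matches describe the letters in this window and were not tested for binding.

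The labelled cell type was checked against its markers before RASD1 was read. The 6 luminal markers read here were present in all 21 libraries, from a lowest value of 53.2 FPKM for FOXA1 to a highest of 1349 FPKM for XBP1. FPKM are fragment counts divided by gene length and by a library size that differed from the fragments on genes. That size was 1.08 to 1.15 times those fragments in control and 0.693 to 0.960 times in DES with cadmium. Among 12 markers of basal, fibroblast, immune and endothelial cells, summed levels ran from 9.90 FPKM in GSK4716 replicate 2 to 33.9 FPKM in DES replicate 3, and COL1A1 was the most abundant in every library, at 9.34 to 32.7 FPKM. None of the other 11 exceeded 1.05 FPKM, and KRT14 was at 0 in 17 libraries, DCN in 12, LUM in 19, PTPRC in 12, CD3E in 19, PECAM1 in 11 and CDH5 in 16. The summed level was 10.5 to 12.1 FPKM in the control libraries and 14.3 to 17.2 FPKM in the calcium libraries that had the most RASD1, and its part in the RASD1 values was not tested. In DES replicate 3, where that sum was highest, RASD1 was at 2.24 FPKM. Total fragments on genes were between 14435925 and 28424805 per library, with a median of 18314738. Mitochondrial genes held 7.70 to 8.19% of fragments in control, 4.88 to 7.55% in calcium, 7.36 to 9.75% in cadmium, 8.20 to 8.84% in GSK4716, 3.47 to 4.96% in DES, 4.34 to 5.17% in DES with calcium and 1.97 to 5.31% in DES with cadmium. The lowest library was DES with cadmium replicate 2, which also had the least RASD1 of its group. Calcium replicate 2 went the other way, with the lowest share of its group (4.88%) and the most RASD1 of any library (179 FPKM). Genes detected ran from 16605 in DES with cadmium replicate 1 to 35112 in DES replicate 3; the part of either in the RASD1 values was not tested. In these bulk libraries more RASD1 RNA per cell and more cells with RASD1 cannot be told apart.

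RASD1 was at a low level in untreated cells. The control libraries held 0.442, 0.298 and 0.554 FPKM, from 25, 11 and 16 fragments. With calcium RASD1 reached 54.2, 179 and 41.0 FPKM, from 2113, 5479 and 1605 fragments. Replicate 2 stood above the others in calcium, yet the lowest calcium library lay far above every library of the other 6 groups. Among all genes of the table RASD1 ranked 14437, 15972 and 13443 by FPKM in the control libraries and 809, 195 and 940 in the calcium libraries. RASD1 thus stood among the 940 most abundant genes in every calcium library.

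Cadmium gave RASD1 values of 0.723, 10.8 and 2.54 FPKM. This was the widest spread of RASD1 in any group, with a highest library 15.0 times the lowest. With GSK4716 RASD1 was 1.16, 1.39 and 1.73 FPKM, the tightest group. With DES alone RASD1 was 3.36, 1.28 and 2.24 FPKM. All libraries of these 3 groups lay above the highest control library, but GSK4716 and DES overlapped each other and both overlapped cadmium. DES with calcium gave RASD1 values of 3.07, 5.74 and 5.31 FPKM, and DES with cadmium 3.84, 1.20 and 6.14 FPKM. Neither combination came near calcium alone.

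**Figure D1:**
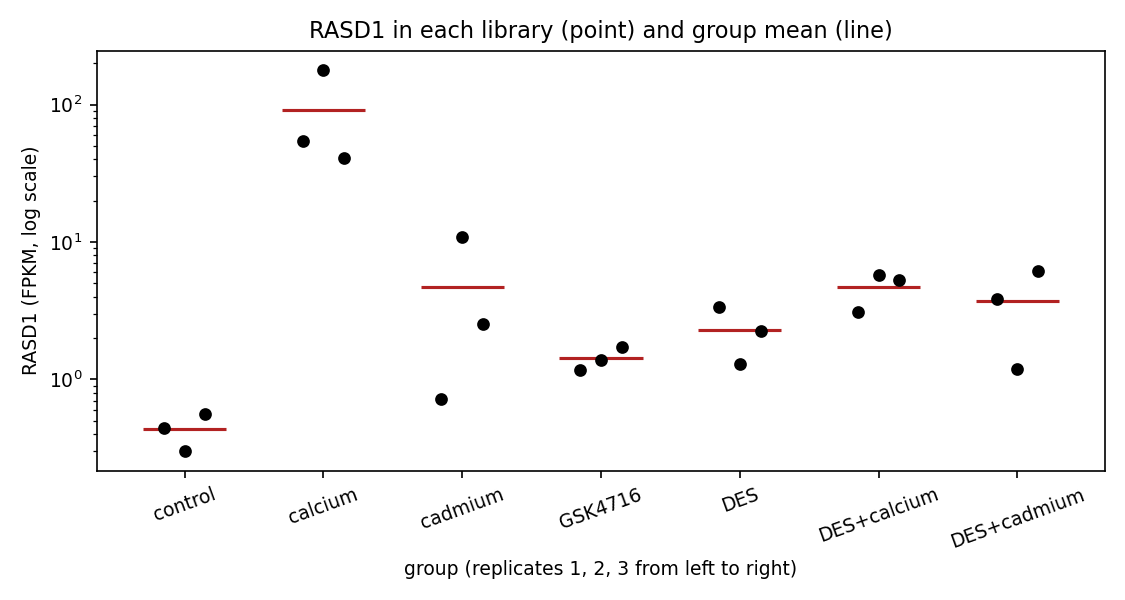
RASD1 in FPKM on a log axis for each library of the 7 groups, with points for libraries and a line for the group mean. The calcium libraries sit between 41.0 and 179 FPKM, apart from every other library, and the control libraries sit lowest, between 0.298 and 0.554 FPKM.

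As means with their SD (n = 3 each), RASD1 was 0.431 ± 0.128 FPKM in control, 91.5 ± 76.3 in calcium, 4.70 ± 5.39 in cadmium, 1.43 ± 0.284 in GSK4716, 2.30 ± 1.04 in DES, 4.70 ± 1.44 in DES with calcium and 3.73 ± 2.48 in DES with cadmium. By its median, RASD1 fell in the order calcium, DES with calcium, DES with cadmium, cadmium, DES, GSK4716 and control. Only the first and the last step of that order separated RASD1 completely: the lowest calcium library (41.0 FPKM) from the highest with DES and calcium (5.74 FPKM), and the lowest GSK4716 library (1.16 FPKM) from the highest control library (0.554 FPKM). At the other 4 steps the neighbouring groups overlapped and RASD1 did not differ beyond their spread, although from DES to GSK4716 the difference of 0.57 in mean log2 value slightly exceeded the pooled SD of 0.51.

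Counting error set a limit at the low end. The exact Poisson 95% interval of RASD1 in control replicate 3 ran from 0.317 to 0.900 FPKM and that of GSK4716 replicate 1 from 0.815 to 1.61 FPKM, so these neighbouring libraries overlapped within counting error. In calcium replicate 3 the interval for RASD1 was 39.0 to 43.1 FPKM, and counting added little to the spread there. These intervals cover counting error only, since copies made by PCR are not separate molecules.

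The calcium rise that selected RASD1 was 7.14 on the log2(FPKM + 0.1) scale (SE 0.56), or 212 times the control mean in FPKM. Without calcium replicate 2 the calcium mean fell from 91.5 to 47.6 FPKM and the log2 change to 6.50. The pseudocount of 0.1 and the averaging on the log2 scale both make the log2 value smaller than the ratio of means for RASD1. Ranked by this value among 12245 tested genes with a mean of at least 1 FPKM, RASD1 stood at place 3, or at place 7 by limma-voom on fragments. FOS (8.15, a transcription factor subunit of AP-1) and LIF (8.14, a cytokine) stood just above RASD1. KRT81 (7.01, a hair keratin), AC004264.1 and MIR4768 stood just below it. The last pair held 0 fragments in every control library, so their calcium means are only known to be at least 80.6-fold and 7.20-fold higher than a floor of 3 fragments per library. Unlike RASD1, 4 of these 5 genes overlap others in the annotation: LIF and AC004264.1 overlap each other, KRT81 overlaps KRT86, which is also near-identical in sequence, and MIR4768 lies within NHS, so their fragments are uncertain. RASD1 was thus, with FOS, a large riser whose counts are not shared with another gene.

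Agents other than calcium were set against the same control libraries that had served to select RASD1. A gene selected for a low control is biased toward a rise in these comparisons, so its values here are descriptions without a test. For DES, RASD1 was higher in 3 of 3 libraries than in every control library, which was so for 25.9% of all genes tested. Its log2 fold change was 2.10 (SE 0.41), or 1.16 with a pseudocount of 1. Genes other than RASD1 were called at a limma p adjusted by Benjamini-Hochberg below 0.05, and 29.6% of genes were called in DES against control.

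For cadmium, RASD1 was above every control library in 3 of 3 libraries, as were 17.7% of genes, with a log2 fold change of 2.47 (SE 0.90). The limma fit called 0.15% of genes there. Without cadmium replicate 1, the lowest, the RASD1 change was 3.37, and without cadmium replicate 2, the highest, it fell to 1.502, so its size depends on single libraries. With a pseudocount of 1 it was 1.54.

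For GSK4716, RASD1 was above every control library in 3 of 3 libraries, as were 10.7% of genes, with a log2 fold change of 1.53 (SE 0.27), or 0.76 with a pseudocount of 1. Here limma called 0 genes (0%), while 2404 had an unadjusted p below 0.05 and limma-voom called 49. The RASD1 change with the agonist was more even across libraries than that with cadmium. Agonist and antagonist thus both came with RASD1 values above all control libraries.

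**Figure D2:**
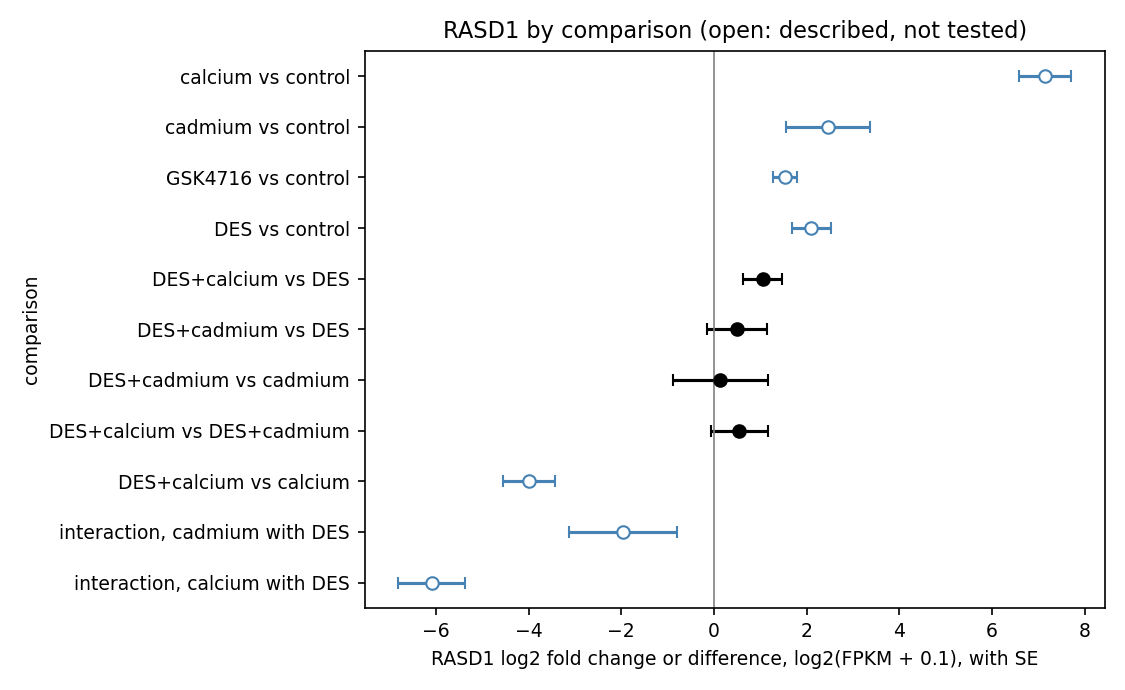
Log2 fold change of RASD1, or difference of log2 fold changes for the 2 interactions, with its SE, for each comparison on the log2(FPKM + 0.1) scale. Open points rest on the calcium or the control libraries and were not tested; the 3 with calcium alone lie farthest from 0, at 7.14 for calcium against control, −3.99 for DES with calcium against calcium and −6.09 for the interaction.

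The study added DES before calcium as an antagonist of ESRRB. ESRRB RNA was at most 0.257 FPKM in any library, and 29.6% of genes were called by limma in DES alone against control. The part of that receptor in the RASD1 values was not tested. RASD1 was lower in 3 of 3 libraries with DES and calcium than in every calcium library, as were 25.1% of all genes. Its difference was −3.99 on the log2 scale (SE 0.56), and the mean was 0.0514 times that of calcium alone. The calcium effect on RASD1 was 6.09 log2 units smaller with DES than without, an interaction of −6.09 (SE 0.72). Both values include libraries that selected RASD1 and were not tested. Of the −6.09, the part of −3.99 is the lower level beside calcium alone, and the rest is the rise of 2.10 that RASD1 had with DES alone. Among 19 other genes named by list, cell markers aside, 8 passed the limma test of this interaction, as did 3.63% of all genes. Those 8 were named for their calcium change, which favours a negative difference. Beside calcium alone their levels went different ways. With DES and calcium the mean was 74.1 FPKM for DUSP1 and 33.4 for CRTC2, against 76.2 and 18.4 with calcium. For ERRFI1 and RCAN1 it was 52.2 and 2.27 FPKM, against 207 and 10.9.

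Within the libraries that held DES, the effect of calcium on RASD1 could be tested on samples that played no part in its selection. RASD1 was above every DES library in 2 of 3 libraries with DES and calcium, while 7.84% of genes were so in 3 of 3. The log2 fold change was 1.05 (SE 0.42, 95% interval 0.04 to 2.06) with a limma-adjusted p of 0.363, and 0.136% of genes were called. Whether equal replicate numbers pair the libraries here was not shown. Within numbers RASD1 changed by −0.13, 2.08 and 1.21 on the log2 scale. With the replicate block the RASD1 p was 0.344 by limma after adjustment (0.173 to 0.668 over the alternatives) and the number of genes called went from 20 to 0. A RASD1 rise with calcium in the presence of DES was therefore not shown. The 95% interval with the block, −0.25 to 2.35, leaves room for one of up to 5.09-fold, and that without the block for one of up to 4.17-fold.

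For cadmium in the presence of DES, RASD1 changed by 0.50 (SE 0.65, 95% interval −1.06 to 2.06) against DES alone, with a limma-adjusted p of 0.835, and 0.266% of genes were called. Within replicate numbers its changes were 0.19, −0.09 and 1.41 on the log2 scale. With the replicate block the count of called genes went from 39 to 0 and RASD1 had a limma-adjusted p of 0.540 (0.488 to 0.999 over the alternatives). Thus the libraries differed in direction and no RASD1 effect of cadmium over DES was resolved. Leaving out DES with cadmium replicate 3 took the change to 0.01, DES replicate 2 to 0.15, DES with cadmium replicate 2 to 1.15 and DES replicate 1 to 0.82.

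DES with cadmium against cadmium alone differed in RASD1 by 0.14 (SE 1.02, 95% interval −2.29 to 2.57; limma-adjusted p 0.936), in a comparison where 9.89% of genes were called. The sign of this RASD1 difference was not stable: it was −0.18 with scaling by total fragments and −0.16 by limma-voom. The cadmium effect on RASD1 with DES minus that without was −1.96 (SE 1.17), or −1.13 with a pseudocount of 1 and −0.9999 without cadmium replicate 2, which includes the control libraries and was not tested, while 1.18% of other genes were called. A difference in RASD1 between DES with calcium and DES with cadmium was not shown (log2 fold change 0.55, SE 0.62, 95% interval −0.97 to 2.07, limma-adjusted p 0.752), with 0.0272% of genes called, and this sign turned to −0.10 without DES with cadmium replicate 2. The interval allows RASD1 to be up to 4.20-fold higher with calcium than with cadmium under DES.

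RASD2, the closest relative of RASD1, showed no rise with calcium like that of RASD1. RASD2 was at 0.0272, 0.125 and 0.124 FPKM in control and 0.0788, 0.218 and 0.0131 FPKM in calcium, from at most 13 fragments in either group, and the groups overlapped. It lay below the filter, and in a fit without the filter its log2 fold change with calcium was 0.00 (SE 0.53; limma-adjusted p 1.00), and a small change is not resolved by so few fragments. With DES alone RASD2 was at 0.324, 0.188 and 0.301 FPKM, above every control library as RASD1 was, and with cadmium at 0.0967, 0.418 and 1.05 FPKM, from 6, 29 and 59 fragments. With DES and calcium it was at 0, 0.108 and 0.0190 FPKM.

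Of 34 other Ras family genes read here, 21 passed the filter, 3 were called higher and 0 lower in calcium against control, where 7.12% of all genes were called, 4.6% higher and 2.53% lower. Their median log2 fold change was 0.18, against −0.01 over all genes tested, and none came near RASD1 apart from GEM. GEM, a Ras-related inhibitor of voltage-gated calcium channels, held 0.0351, 0.0536 and 0.0457 FPKM in control and 4.97, 21.02 and 13.6 FPKM in calcium. Its groups lay far apart, but no control library held more than the floor of 3 fragments, and the calcium mean was 252 times that floor. The ratio of 292 in fragments per depth is therefore uncertain (exact 95% interval for counting error 148 to 676). The log2 fold change of GEM was 6.30 (SE 0.53, limma-adjusted p 0.00901), and 3.57 to 7.62 over the alternatives. RAP2B rose by 1.89 (SE 0.21; limma-adjusted p 0.0121) and RRAS, which acts on integrins, by 1.33 (SE 0.23; limma-adjusted p 0.0285). All 3 lay above every control library, but 2 of them rose far less than RASD1. RRAS lost its call in 7 of 14 alternatives and GEM and RAP2B in 3 each, and without control replicate 1 or 2 none of the 21 genes was called.

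In DES against control, with 16.7% of genes called higher and 12.9% lower, 9 of the 21 Ras family genes were called higher and 2 lower (RAP2A and RAP2C, named after their values were seen). Their median was 0.75, against 0.05 over all genes. The 11 called became 6 with no filter or without control replicate 1, and 7 without control replicate 3. GEM changed most of them, by 4.31 (SE 0.42; limma-adjusted p 0.00126), more than the 2.10 of RASD1. It was at 2.17, 2.06 and 4.70 FPKM with DES and at 6.79, 7.49 and 7.60 FPKM with DES and calcium, within the range of its calcium libraries, whereas RASD1 with DES and calcium lay below every calcium library.

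**Figure D3:**
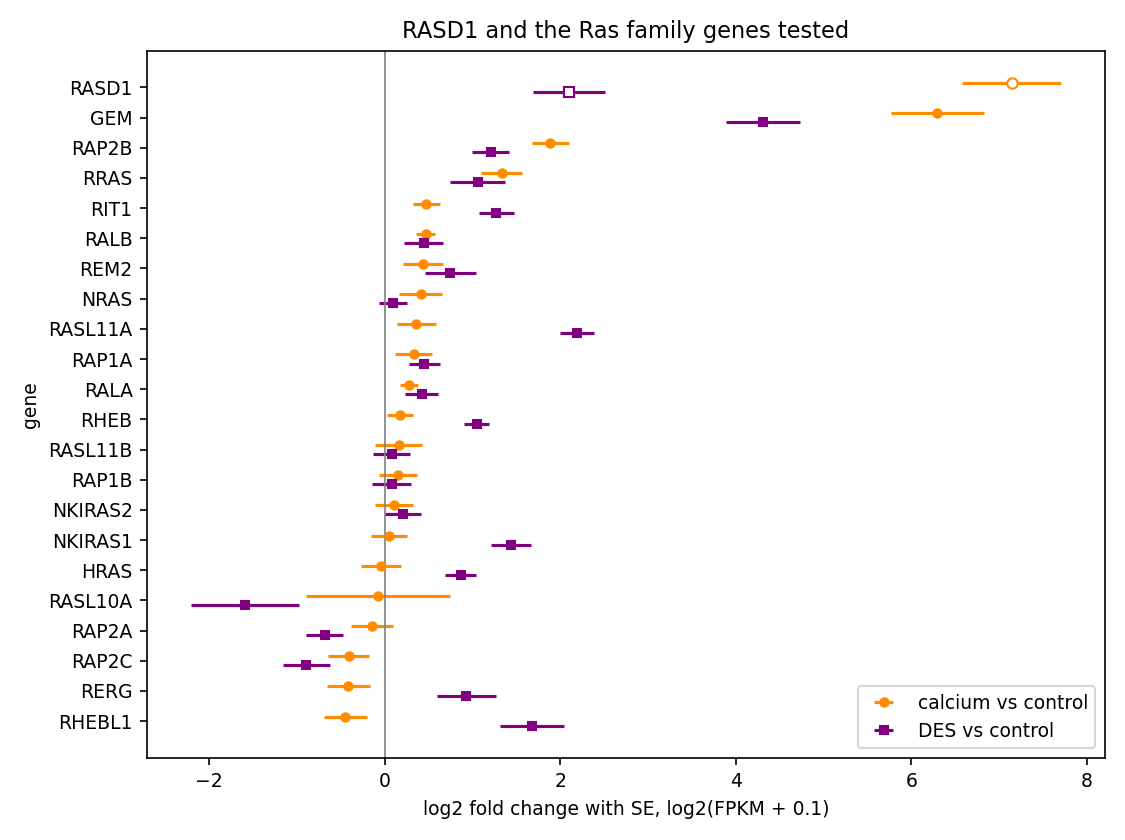
Log2 fold changes with SE of RASD1 and of the 21 Ras family genes that passed the filter, on the log2(FPKM + 0.1) scale, for calcium (circles) and DES (squares) against control. RASD1 (7.14) and GEM (6.30, and 3.57 to 7.62 over the alternatives) stand apart with calcium, and the open markers of RASD1 were not tested.

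Genes of proteins known to bind RASD1, or linked to it through such a protein as NOS1 and SLC11A2 are, were few among those tested. NOS1, NOS1AP and APBB1 lay below the filter. Of 6 such genes 3 passed the filter, with a median of −0.13, and limma called 0 with calcium (7.12% of all genes), with 0 at an unadjusted p below 0.05 and 0 by limma-voom. ACBD3, which links RASD1 to iron uptake, changed by 0.01 (SE 0.20), the iron transporter SLC11A2 by −0.13 (SE 0.16) and the nuclear receptor NR2F6 by −0.20 (SE 0.25). The sign for ACBD3 turned negative with median-ratio and total scaling. With DES alone 1 was called, SLC11A2, lower by a log2 change of −0.86 (SE 0.19; limma-adjusted p 0.0169), beside 12.9% of all genes called lower; without any 1 of the control libraries that count was 0, and without DES replicate 1 it was 3.

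Gi proteins, adenylyl cyclases and the channels that Gi proteins open form the pathway on which RASD1 acts. Of these 18 genes 6 passed the filter, with a median of −0.22 in calcium against control, and limma called 0 (7.12% of all genes), with 0 at an unadjusted p below 0.05 (23.5%) and 0 by limma-voom. GNAI2 (0.02, SE 0.11), ADCY6 (−0.19, SE 0.13) and GNAI3 (0.23, SE 0.18), the most abundant, overlapped between calcium and control. ADCY9, named after its values were seen, lay below every control library (−0.38, SE 0.18; limma-adjusted p 0.268). With total scaling GNAI2 changed sign. DES against control gave 2 called lower (12.9% of all genes), ADCY6 and ADCY3, the second named after its values were seen, and the median was −0.02; without control replicate 1 or 2 or DES replicate 2 the count was 0, and without DES replicate 1 it was 1.

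Glucocorticoid targets were listed because dexamethasone induces RASD1. Of 12 such genes 9 passed the filter, and 2 were called higher and 0 lower with calcium, beside 4.6% and 2.53% of all genes, with a median of 0.55 against −0.01. The log2 change was above 0 for 8 of the 9. FKBP5, named after its values were seen, lay below every control library (−0.56, SE 0.18, limma-adjusted p 0.137). DUSP1, a phosphatase of MAP kinases, rose by 3.94 (SE 0.53; limma-adjusted p 0.0166) and ERRFI1, an inhibitor of the EGF receptor, by 3.28 (SE 0.30; limma-adjusted p 0.00951). DUSP1 lost its call in 6 of 14 alternatives and ERRFI1 in 3, both without control replicate 1 or 2. With DES alone 6 were called higher and 0 lower, beside 16.7% and 12.9% of all genes, with a median of 0.88 against 0.05. The glucocorticoid receptor NR3C1 itself was at 5.66 ± 1.57 FPKM in calcium and 8.15 ± 0.813 FPKM in control (SD, n = 3), a log2 change of −0.55 (SE 0.22; limma-adjusted p 0.196). The part of that receptor in the RASD1 values was not tested, and its RNA does not measure its activity.

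Among the 6 steroid and estrogen-related receptor genes read here 2 passed the filter. ESRRB itself was below the filter, at 0 in 2 of 3 calcium libraries and at most 0.257 FPKM in any library. With calcium limma called 0 of the 2 (7.12% of all genes), with 1 at an unadjusted p below 0.05 (23.5%) and 0 by limma-voom, and the median was −0.34; ESRRA changed by −0.14 (SE 0.16). In DES against control ESRRA (−0.83, SE 0.24, limma-adjusted p 0.0370) was called lower (12.9% of all genes), with a median of −0.24 for the list, in the same libraries in which RASD1 was above control. Of the 6 luminal markers KRT8 and KRT18 were called higher with calcium (1.79 and 1.65; median −0.01; 4.6% of all genes) and FOXA1, named after its values were seen, lower with DES (median −0.07; 12.9% of all genes). KRT8 and KRT18 overlap each other in the annotation and are uncertain, unlike RASD1, and each lost its call in 6 of 14 alternatives. Of the 12 other markers COL1A1 alone passed the filter, and limma called 0 with calcium or DES (log2 fold changes 0.49 and 0.73).

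Immediate early genes, many of them driven by CREB, had the largest median of the 10 lists with calcium. The lists were chosen with earlier results of these data known, so this place may in part be set by that choice. Of 19 genes 14 passed the filter, 11 were called higher and 0 lower with calcium, beside 4.6% and 2.53% of all genes, and the median was 5.05, against −0.01 over all genes. Without control replicate 1 the count of 11 fell to 1 and without control replicate 2 to 3. FOS held 0.392, 0.512 and 0.355 FPKM in control and 97.9, 277 and 116 FPKM in calcium. Its log2 fold change was 8.15 (SE 0.40; limma-adjusted p 0.00481). FOSB rose by 6.32 (SE 0.45; limma-adjusted p 0.00830; lost in 2 of 14 alternatives), GEM is on this list too, and both FOS and RASD1 were highest in calcium replicate 2. With DES alone 9 were called higher (16.7% of all genes) and 0 lower, with a median of 2.71. Over the alternatives that count ran from 5 to 10. With DES and calcium FOS was at 135, 173 and 88.4 FPKM, which overlapped its calcium values, while RASD1 in the same libraries was no higher than 5.74 FPKM. FOS and RASD1 therefore parted once DES was present, a difference between the genes that was not tested. This list shares 2 genes with the glucocorticoid list and 2 with the Ras family, and 1 of its genes, ATF3, is on the study's own list.

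Calcium sensors, calcineurin and the factors they act on had a median near that of all genes, with members that went both ways. Of 31 genes 20 passed the filter, 3 were called higher (4.6% of all genes) and 0 lower with calcium, and limma-voom called 5. Without control replicate 1 or 2 or calcium replicate 3 limma called 0 of them, and without calcium replicate 1 or 2 it called 1. At an unadjusted p below 0.05 there were 9, beside 23.5% of all genes. The median was 0.01, with a sign that turned with median-ratio scaling. RCAN1, a calcineurin inhibitor that calcineurin induces, was at 2.81, 3.00 and 3.55 FPKM in control and 7.60, 15.1 and 9.94 FPKM in calcium, with a log2 fold change of 1.72 (SE 0.27; limma-adjusted p 0.0229). CALM2, a calmodulin gene, rose by 0.78 (SE 0.17; limma-adjusted p 0.0494) and CRTC2, a CREB coactivator, by 0.54 (SE 0.11; limma-adjusted p 0.0422). The calls were lost in 5 of 14 alternatives for RCAN1, 12 for CALM2 and 10 for CRTC2. Like RASD1, RCAN1 was highest in calcium replicate 2. In DES against control CALM3, CRTC2 and MEF2D were called higher (16.7% of all genes) and CAMKK2 and CREB1 lower (12.9%), all but CRTC2 named after their values were seen, and the median was 0.00. These 5 became 2 with the replicate block or without control replicate 1 or 2, and 3 with no filter or without control replicate 3 or DES replicate 2. Over all 10 lists, 160 genes of which 94 passed the filter, limma called 0 in each of the other comparisons used for lists. At an unadjusted p below 0.05 there were 41 in cadmium (25.9% of all genes) and 17 in GSK4716 (16.4%) against control, and 23 for calcium (13.2%) and 13 for cadmium (10.4%) in the presence of DES, while limma-voom called 3, 1, 0 and 0.

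The genes whose pattern was most like RASD1 were taken by Pearson correlation of log2(FPKM + 0.1) over the 21 libraries. These libraries differ in depth and medium, and the large step lies in those with calcium alone, so r is a description. The 10 highest with RASD1 were C2CD4A (r 0.945), ZFP36 (0.929), IER5L (0.929), LIF (0.918), CYR61 (0.911), IL1RN (0.908), PHLDA1 (0.904), ZYX (0.898), AC004264.1 (0.889) and AREG (0.886). Leaving out the calcium libraries, which selected RASD1, lowered r over the other 18 libraries to 0.859 for C2CD4A and to 0.551 for AC004264.1. C2CD4A remained the closest to RASD1 without calcium and by Spearman correlation (0.925), while ZFP36 was closest over the 7 group means (0.991). Each of these other measures shared 3 of its 10 genes with the first 10. Group means of C2CD4A were 0.941 FPKM in control, 17.6 in calcium, 2.94 in cadmium, 1.78 in GSK4716, 3.45 in DES, 4.45 in DES with calcium and 3.31 in DES with cadmium. Its levels followed RASD1 outside calcium and rose less with calcium.

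**Figure D4:**
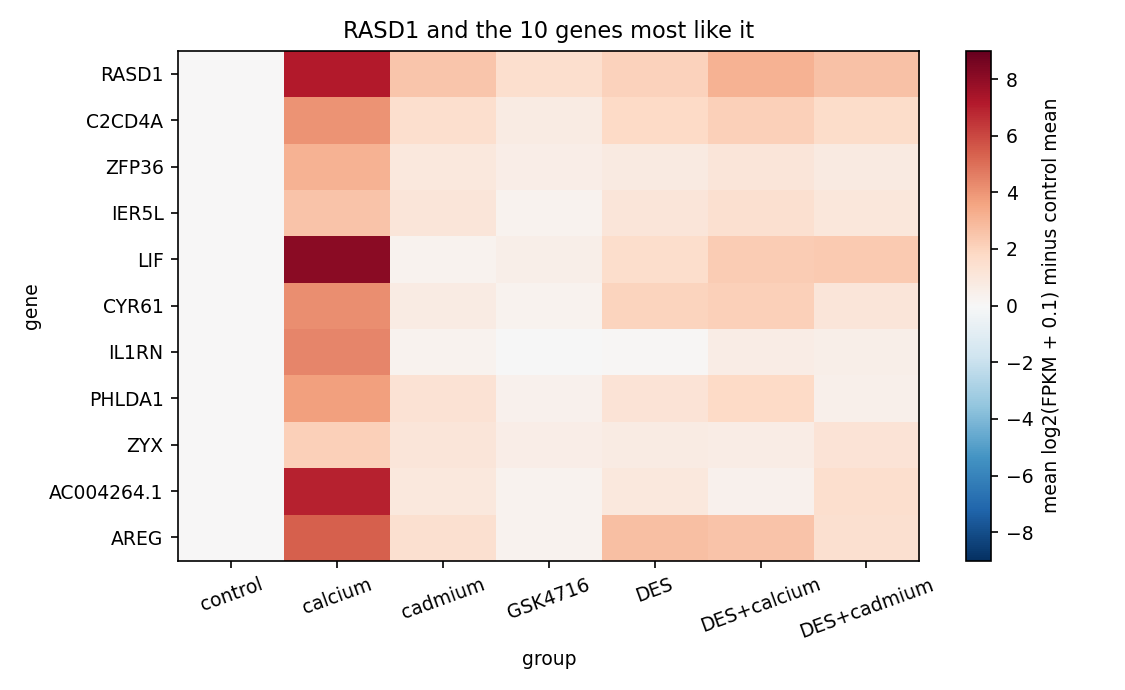
Mean log2(FPKM + 0.1) of each group minus the control mean, as colour, for RASD1 and the 10 genes with the highest correlation with it over the 21 libraries. The calcium column is the darkest for RASD1 and for each of the 10, and the DES columns are paler.

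No tested gene near RASD1 on chromosome 17 rose as far with calcium. MED9, a Mediator subunit, ends 1211 bases past the RASD1 end on the opposite strand, and PEMT, an enzyme of phosphatidylcholine synthesis, ends 9168 bases before the RASD1 start. MED9 was at 3.39, 3.85 and 4.19 FPKM in control and 5.68, 6.27 and 4.63 FPKM in calcium. These groups did not overlap, but the log2 fold change of 0.52 (SE 0.17) had a limma-adjusted p of 0.141. PEMT changed by 0.25 (SE 0.26; limma-adjusted p 0.622). In DES against control MED9 was called lower (−0.98, SE 0.19, limma-adjusted p 0.0108), opposite to RASD1. Of the 20 nearest protein-coding genes, 10 on each side, 15 passed the filter. With calcium 1 was called higher, MPRIP (0.54, SE 0.10, limma-adjusted p 0.0366), a regulator of myosin phosphatase that overlaps other genes, and 0 lower (4.6% and 2.53% of all genes), with a median of 0.10. MPRIP lost this call in 10 of 14 alternatives, among them those without any 1 of the control libraries or without calcium replicate 1 or 2. In all 4 of the 15 lay above every control library with calcium and 4 below, as did 16% and 13.6% of all genes. Besides MPRIP and MED9 those above were FLCN (0.66) and AC055811.2 (0.53), which overlap each other, and those below COPS3 (−0.51), NT5M (−0.78), SREBF1 (−0.54) and ALKBH5 (−0.48), all named after their values were seen. With DES 5 were called higher and 4 lower (16.7% and 12.9% of all genes), with a median of 0.15; both medians turned to −0.02 with total scaling. The 9 called with DES became 3 with no filter or without control replicate 1 or 2, and 5 without DES replicate 2.

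**Figure D5:**
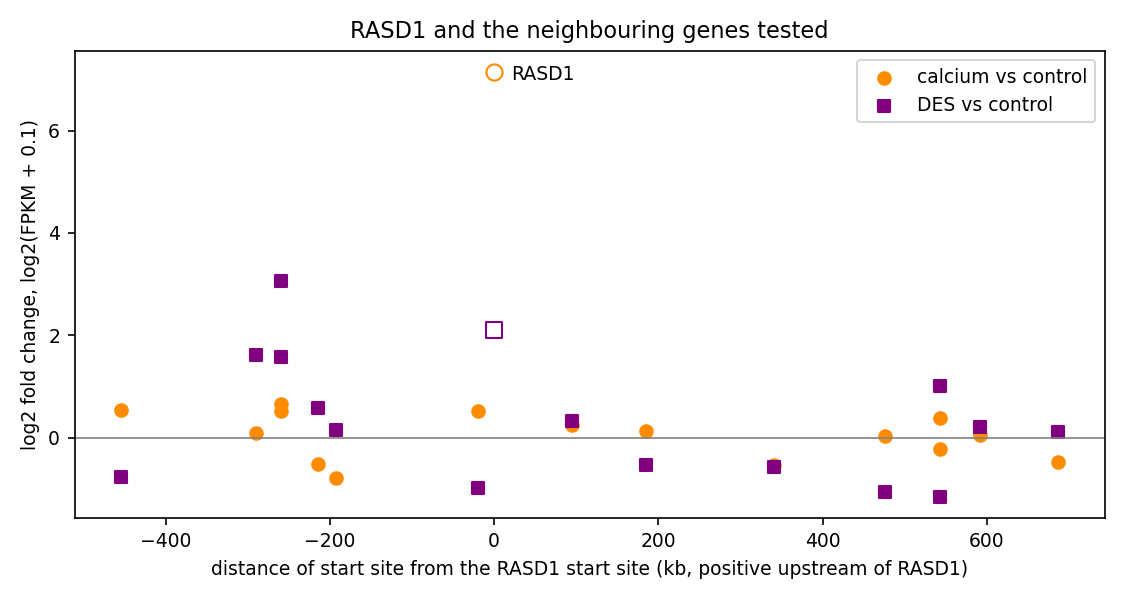
Log2 fold changes on the log2(FPKM + 0.1) scale of RASD1 and of the 15 neighbouring genes that passed the filter, against the distance of their start from the RASD1 start in kb, for calcium (circles) and DES (squares) against control. RASD1 (open, not tested) lies far above all neighbours with calcium, at 7.14.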

How the data were processed

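RNA sequencing of 21 libraries of MDA-MB-453 cells was analysed. The values are FPKM, deposited by the authors for every gene and library beside the gene's length and position. The submitters' processing notes name GRCh38.p14, HISAT2 2.0.5 and featureCounts 1.5.0-p3, and the authors used DESeq2 and edgeR, which were not run here because the deposited unit is FPKM. In each library, FPKM times length came in whole steps for 100% of values (tolerance 0.1), which gave fragments. At most 2.35% of genes with a mean of 10 fragments or more were equal in any pair of libraries, so none was a copy. Limma 3.58.1 in R 4.3.3 (lmFit, eBayes with trend, two-sided) was fitted on log2(FPKM + 0.1). Genes entered with a mean of 0.5 FPKM or more across all libraries, the compared groups alone were in each fit, and Benjamini-Hochberg adjustment ran over the 14686 genes tested. RASD2 was read from a fit without the filter. RASD1 tests against control, though planned, were left out because those libraries took part in its selection. The fits were also run on simulated data, whose outcome is not given here. The simulated spread of a gene was capped below the log2 SD of RASD1 in cadmium (1.87), so that run is no check of RASD1 there. The other steps used Python 3.11.15 with numpy 2.4.6, with pandas 2.3.3, with scipy 1.17.1 and with matplotlib 3.10.9.

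Labels give each group replicates 1 to 3 without saying what a number shares. Deviations from group means correlated within numbers by 0.132, 0.103 and 0.280 for DES with calcium and DES, and by 0.472, 0.121 and 0.313 for the pair with cadmium. All were over 0.1, and the replicate block was read there on that ground alone. Libraries of unequal numbers were not correlated, so a pairing was not shown. Between DES with calcium and DES with cadmium the correlations were 0.126, −0.029 and 0.184.

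Genes named are RASD1, RASD2, per list up to 3 members with the largest change called with calcium or, with none called, the most abundant, the 10 most alike, the 3 next above and below RASD1 by calcium change (2 stood above), and both adjacent genes. All 140 listed genes were found by symbol, and 2 further genes of the planned lists are not reported here. The members and lists were chosen with earlier results of these data known. Alternatives were a pseudocount of 1, no filter, a filter at 2 FPKM, median-ratio or total-fragment scaling, all 7 groups fitted together, a replicate block, limma-voom, each library left out and, for the most alike genes, other measures. Promoters came from RefSeq (GRCh38.p14) and exons from GENCODE 44.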

Additional observations from a re-analysis of the deposited data

Results flagged for a closer look

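The effect of calcium with DES minus its effect without DES, tested as an interaction by limma with Benjamini-Hochberg adjustment, passed 0.05 for 3.63% of genes tested and for 8 of the genes named beside RASD1. The log2 differences were −4.93 for GEM (adjusted p 0.00448), −4.41 for FOS (0.0109), −3.40 for DUSP1 (0.0164), −3.04 for FOSB (0.0387), −2.29 for ERRFI1 (0.0342), −1.82 for RAP2B (0.0219), −1.71 for RCAN1 (0.0334) and −1.10 for CRTC2 (0.0328). These genes were named for their calcium change, from 0.54 for CRTC2 to 8.15 for FOS, so the direction of their differences is partly set by that choice. For CRTC2 the change with calcium in the presence of DES was −0.56. Whether equal replicate numbers pair the DES libraries with those of DES with calcium was not shown, and no replicate block or other alternative is given for these 8 genes. The RASD1 value of −6.09 was not tested.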

How the results depend on the processing

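RASD1 kept its direction and its side of the threshold except as follows, and unless a cause is given it was not tested. With a pseudocount of 1 its calcium change was 5.71, its interaction of calcium with DES −4.90, its DES change 1.16 and its GSK4716 change 0.76, since a larger pseudocount shrinks low values. DES with cadmium against cadmium turned to −0.18 with total scaling and −0.16 by limma-voom. With each library left out in turn RASD1 changed by 1.502 to 3.37 for cadmium, by 0.014 to 1.15 for cadmium in the presence of DES, by −2.86 to −0.9999 for the interaction of cadmium with DES, by −0.76 to 1.10 for DES with cadmium against cadmium, and by −0.10 to 1.04 for DES with calcium against DES with cadmium. The replicate block changed no RASD1 call. Outside the 2 comparisons of DES with a metal against DES, at least 1 correlation within a number was not over 0.1. With the block 260 genes were called for calcium, 3 for cadmium, 0 for calcium and 0 for cadmium in the presence of DES, and 11 list members for calcium. Other settings moved the counts of called genes too. For calcium the 1046 became 60 with no filter and 1586 by limma-voom. For cadmium the 22 became 148 with a pseudocount of 1, 38 with no filter, 156 with the filter at 2 FPKM, 14 with total scaling, 1026 with all groups in the fit and 455 by limma-voom. For GSK4716 limma-voom called 49, and for DES no filter left 2106. For calcium in the presence of DES the 20 became 5 with a pseudocount of 1 or the filter at 2 FPKM, 0 with no filter or by limma-voom, and 166 with all groups. For cadmium in the presence of DES the 39 became 77, 3, 7, 0 and 603 in the same order. List members called went from 20 to 1 for calcium and from 42 to 20 for DES with no filter. With each library left out, the counts ran from 7 to 758 for calcium (lowest without control replicate 1), 1 to 1605 for cadmium (highest without cadmium replicate 1), 0 to 1 for GSK4716, 1930 to 5078 for DES, 0 to 41 for calcium and 0 to 96 for cadmium with DES, and 1 to 19 and 20 to 42 for list members with calcium and DES. Of genes not called with calcium, ACBD3 turned to −0.0083 with median-ratio scaling, −0.11 with total scaling and −0.11 by limma-voom, and GNAI2 to −0.10 with total scaling and −0.10 by limma-voom. Leaving out libraries gave −0.19 to 0.14 for ACBD3, −0.063 to 0.072 for GNAI2, −0.37 to 0.060 for NR2F6 and −0.25 to 0.021 for ESRRA. Total scaling moved the median of all genes by −0.11 for calcium, −0.17 for DES and −0.31 for DES with cadmium against cadmium. Median-ratio scaling moved it by only −0.014, −0.026 and 0.014, so it lay close to the deposited values and is a weak check of them. Depth limits RASD1 most in control, where 11 to 25 fragments stand behind its value.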
